A study of Homo sapiens with 20 samples.

Results

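Distal BRG1 peaks gained at 30 min were peaks of the list made 30 min after hormone that overlapped no peak of the 0 min list by even 1 bp and lay more than 5 kb, measured from the peak's edge, from every annotated gene 5 prime end. The rule took 3590 of the 6180 peaks at 30 min (58.1%), beside 1906 gained peaks nearer to a 5 prime end, 449 distal peaks present at both times and 1396 distal peaks listed only at 0 min (of 2288 in the 0 min list). T47D is an established line of luminal breast cancer cells that carries oestrogen and progesterone receptors. BRG1 was mapped by ChIP-seq as 1 peak list each at 0 and 30 min of R5020, a synthetic progestin given at 10 nM after an overnight without serum. RNA-seq came from T47D cells transfected with siRNA to BRG1 (si-BRG1), CBX3 (si-CBX3) or FOXA1 (si-FOXA1), or with a control siRNA (si-control), at 0 h and 6 h of hormone with 2 libraries in each of the 8 groups, and from 1 library without siRNA at each of these times. All groups share the cell line and, as far as the labels give them, the medium and the hormone; each BRG1 list comes from cells for which the labels name no siRNA. The series' title concerns linker histone H1.2, BRG1 and genes that hormone represses.

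BRG1, encoded by SMARCA4, is an ATPase of the SWI/SNF complexes, which slide and evict nucleosomes and so open or close stretches of DNA to other proteins. Steroid receptors, the progesterone receptor among them, bind mostly to sites far from promoters, often in introns or between genes, and recruit remodellers there. Such sites commonly lie in groups along a gene and can act on a promoter at a distance, so the nearest 5 prime end is only a label of position.

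Which values chose the peaks is part of their definition. A peak counted as gained because no peak of score 50 or more was listed there at 0 min, and the score, deposited by the authors with no unit, was 50.01 at the lowest, 66.42 at the median and 572.16 at the highest among the 3590. Each time has 1 list, so gain has no replicate and no test, and no source used here says whether an input was used. At the distance limit, the nearest included peaks lay 5002 bp from RNU6-145P (score 119.84) and 5005 bp from ENSG00000269604 (113.12), and the nearest left out lay 4997 bp from USP44 (74.53) and from ENSG00000238824 (60.6). At the overlap limit, the kept peaks with the smallest overlap shared 15 and 16 bp with a 0 min peak, at scores of 61.62 and 75.79.

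No sequence of the hg19 peak regions was used here. To show what lies at genes with distal gained peaks, the RefSeq promoters (GRCh38.p14, from 250 bases before to 50 after RefSeq's start) of 3 genes are printed 5 prime to 3 prime on the gene's strand. ACOT6 (chr14:73610695-73610994, plus strand) is one of the largest rises and PGR (chr11:101129028-101129327, minus strand) one of the deepest falls. PRLR (chr5:35118073-35118372, minus strand) is the gene with 11 distal gained peaks. RefSeq's start of PRLR is not the 5 prime end used for distances here, and those of ACOT6 and PGR need not be. Capitals mark matches to 4 motifs searched on both strands: the core of the progesterone and glucocorticoid response element (an inverted repeat), its single arm TGTTCT, the letters known for forkhead factors, TGTTTAC, and those known for the AP-1 factors, TGANTCA.
ACOT6: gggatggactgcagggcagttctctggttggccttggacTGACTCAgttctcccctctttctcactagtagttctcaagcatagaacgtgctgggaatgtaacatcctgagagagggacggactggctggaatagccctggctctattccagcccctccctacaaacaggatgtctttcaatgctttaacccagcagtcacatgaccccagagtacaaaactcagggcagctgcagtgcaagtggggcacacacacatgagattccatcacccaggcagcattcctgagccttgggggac
PGR: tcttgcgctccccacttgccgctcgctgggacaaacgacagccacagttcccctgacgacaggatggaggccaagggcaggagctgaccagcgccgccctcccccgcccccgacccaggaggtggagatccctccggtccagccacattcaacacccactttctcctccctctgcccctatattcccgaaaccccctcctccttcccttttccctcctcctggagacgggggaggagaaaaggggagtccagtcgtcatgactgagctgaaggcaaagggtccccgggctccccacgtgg
PRLR: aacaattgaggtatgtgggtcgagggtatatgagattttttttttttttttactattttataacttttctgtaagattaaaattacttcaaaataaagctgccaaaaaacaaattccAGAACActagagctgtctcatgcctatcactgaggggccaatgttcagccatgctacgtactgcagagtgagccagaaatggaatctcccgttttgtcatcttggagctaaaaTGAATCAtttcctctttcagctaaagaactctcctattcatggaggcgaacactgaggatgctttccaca
The ACOT6 promoter held 1 AP-1 match, the PRLR promoter 1 such arm and 1 AP-1 match, and the PGR promoter no match to the 4 motifs. The full element core was in 106 of 27305 RefSeq promoters (0.388%) and in 1 of the 599 promoters matched by symbol to tested nearest genes. The single arm was in 14.9% of all promoters, in 16 of 168 (9.52%) of nearest genes that rose with hormone and in 15 of 160 (9.38%) of those that fell. The AP-1 letters were in 7.76%, 4.76% and 9.38% in the same order. A match is only a match of letters and says nothing of binding, and matches to the core and to the single arm can overlap.

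The libraries hold 50017255 to 74374857 fragments counted in genes. SMARCA4 was at 76.6 and 65.7 CPM (counts scaled to library size by TMM) in si-control at 0 h and at 4.99 and 5.90 CPM in si-BRG1 at 0 h, with no distal gained peak within 100 kb. It was at 175 to 187 CPM in si-CBX3 and si-FOXA1 at 0 h, above si-control. FOXA1 was at 389 and 408 CPM in si-control and at 61.4 and 62.8 CPM in si-FOXA1 at 0 h. The si-CBX3 groups enter no tested comparison here, and CBX3 was not checked. Summed luminal markers were at 8027 to 14343 CPM and the 7 basal markers at 56.2 to 311 CPM. Of the basal markers only KRT14 and KRT17 were below 1 CPM in every library. Fibroblast markers were at 24.7 to 60.9 CPM and leukocyte markers at 0.591 to 1.75 CPM. No label ties replicates to separate cultures, and a p-value here reflects only how far these libraries spread, which may be technical. In bulk RNA a lower level cannot be told apart as fewer cells with the transcript or less RNA per cell.

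The distal gained peaks lay mostly inside genes. Of the 3590, 2124 (59.2%) were centred in an intron, 147 (4.09%) in an exon and 1319 (36.7%) between genes. The distance to the nearest 5 prime end had a median of 30.1 kb and quartiles of 14.8 and 61.8 kb; 435 peaks (12.1%) were more than 100 kb away. Peaks lay about as often upstream (1678) as downstream (1912) of that 5 prime end, and only 695 (19.4%) lay within the span of the gene it belongs to. Distal peaks listed at both times were intronic in 60.4% and distal peaks of the 0 min list alone in 56.7%, with median distances of 33.9 and 37.8 kb, so position relative to genes varied little among the 3 distal sets.

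Width and score differed among the distal sets, which the rule itself can bring about, since a wider peak is more easily overlapped. The median width was 1028 bp for gained peaks, 1777 bp for peaks present at both times and 1025.5 bp for peaks of the 0 min list alone. Scores of 100 or more made up 649 (18.1%), 180 of 449 (40.1%) and 55 (3.94%) in that order. Among gained peaks near a 5 prime end the share was 23.8%. The highest score among distal gained peaks, 572.16, belonged to a peak in an intron of GRHL2 (chr8:102512934-102517612), a transcription factor of epithelial cells. Next came peaks of score 539.3 in an intron of TRPS1, 520.8 in an intron of MYOF, which encodes a membrane repair protein, 513.31 between genes near RNU6-1324P, and 437.81 between genes near ENSG00000224049. A peak in an intron of USP10, a deubiquitinase gene, scored 358.79.

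Chromosome 3 held 568 of the 3590 peaks (15.8%) but 5.36% of annotated genes. The excess lay at the end of its long arm: 191 peaks fell between 150 and 175 Mb and 194 between 175 and 200 Mb, against 12 to 46 in each of the other 25 Mb stretches. The same chromosome held 44.8% of the distal peaks present at both times and 30.3% of those of the 0 min list alone. Chromosomes 19, 22 and 18 held 19, 18 and 16 distal gained peaks. Each result on RNA below is therefore also given without chromosome 3 where that moves it; none of the 10 counts of nearest genes called higher or lower moved by more than 1.5 times without it, and the part of chromosome 3 in the peak calls was not tested.

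**Figure D1:**
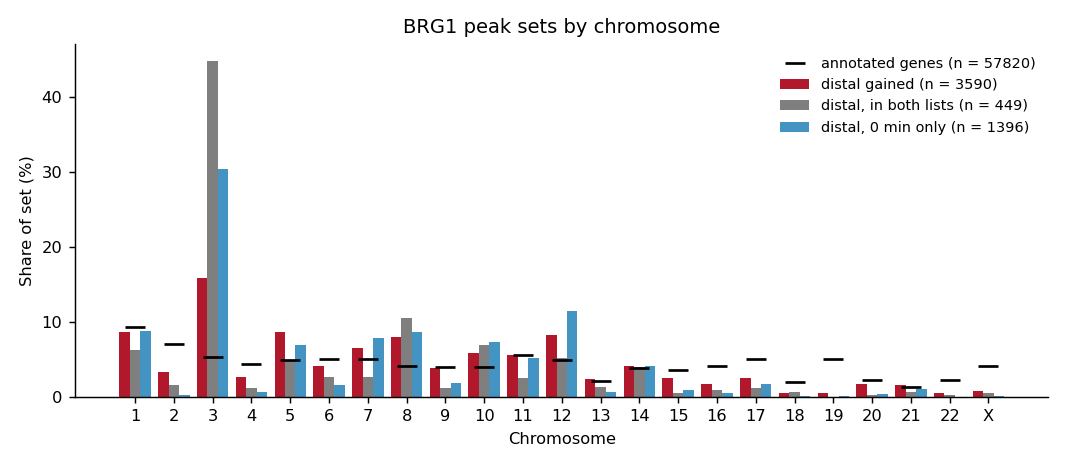
Share of each distal BRG1 peak set (bars, percent of the set) on each chromosome, with the share of annotated genes as black marks. Chromosome 3 holds 15.8% of the 3590 gained peaks, 44.8% of the 449 peaks in both lists and 30.3% of the 1396 peaks of the 0 min list only.

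About 1 gained peak in 5 had another one close by. With peaks chained over gaps of up to 12500 bp, 787 (21.9%) fell into 344 clusters, of which 279 were pairs, 46 held 3 peaks, 11 held 4, and 8 held 5 to 7. Of distal peaks present at both times 20.9% lay in clusters built the same way, and of those of the 0 min list alone 17.0%; these sets are smaller, and fewer peaks leave wider gaps. Members of clusters of 3 or more had a median score of 76.82 and a median width of 1448 bp, against 65.28 and 989 bp for peaks alone. Most gained peaks were far from BRG1 peaks of the unstimulated cells: 450 lay within 12500 bp of a 0 min peak, and the median gap was 200 kb.

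**Figure D2:**
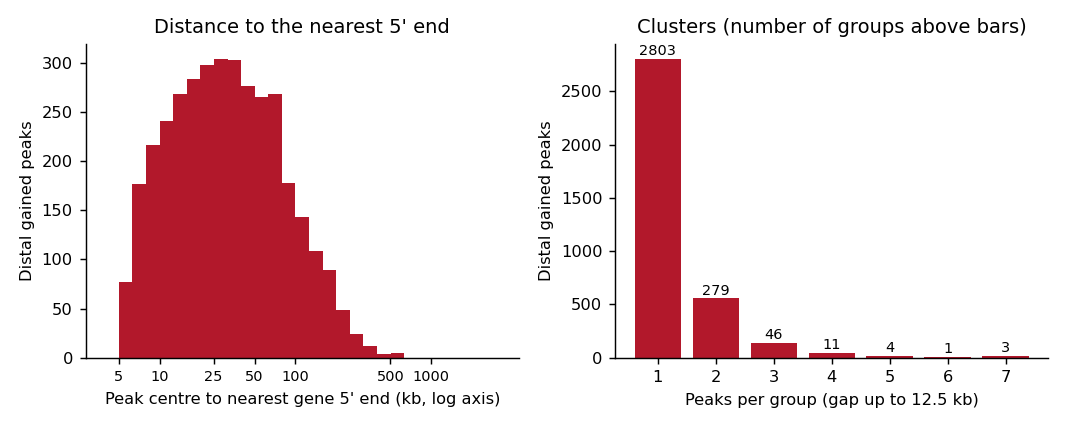
Left, number of distal gained peaks by distance from peak centre to the nearest gene 5 prime end (kb, log axis); right, number of peaks that stood alone or in clusters of 2 to 7, with the number of groups above each bar. The median distance was 30.1 kb, and 2803 peaks stood alone.

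The 3 largest clusters held 7 peaks each and lay inside genes. One spanned 29.6 kb in MED13L (chr12:116549639-116579214), which encodes a subunit of the Mediator kinase module, with scores of 60.56 to 191.44. Another spanned 24.8 kb in IGF1R (chr15:99396035-99420830), the receptor of insulin-like growth factor 1, with scores of 50.57 to 177.21. The last spanned 25.4 kb in the non-coding gene LINC01687 (chr21:23419660-23445042). In the first and second, no peak lay within 12500 bp of a 0 min peak, whereas 6 of the 7 in LINC01687 did. A further cluster in MED13L held 3 peaks (chr12:116676745-116684599), and all 3 lay within 12500 bp of a 0 min peak. Within 100 kb of MIR620, which lies in MED13L, there were 13 peaks, each in an intron of MED13L.

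TRPS1 and PRLR each had several clusters of peaks. TRPS1 (ENSG00000104447.7, chr8:116420724-116821899, minus strand), a GATA-family repressor, was the nearest gene of 12, including a cluster of 6 upstream of it, all within 12500 bp of a 0 min peak. A further 14 had their nearest 5 prime end at TRPS1-AS1, whose transcript was at 0 in every siRNA library; 12 of them lay in an intron of TRPS1. PRLR (ENSG00000113494.12, chr5:35048861-35230794, minus strand), the prolactin receptor gene, was nearest to 11, with a cluster of 5 in its introns (chr5:35188011-35215499) and another of 5 upstream of it (chr5:35301992-35320127), none of them within 12500 bp of a 0 min peak.

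The RNA of these cluster genes moved in both directions at 6 h. MED13L was at 482 and 469 CPM at 0 h and at 284 and 297 CPM at 6 h in si-control, a fall of 0.71 on the log2 scale (SE 0.0703, adjusted p = 3.98e-07). IGF1R was at 55.2 and 54.1 CPM at 0 h and at 77.3 and 72.9 CPM at 6 h, a rise of 0.46 (SE 0.0938, adjusted p = 9.16e-04). In both genes the libraries of the 2 times did not overlap; these genes are named as hosts of the clusters, after their values were seen. LINC01687 was at 27.2 and 21.2 CPM at 0 h and at 6.23 and 6.45 CPM at 6 h, and fell by 1.93 (SE 0.193, adjusted p = 4.51e-07). PRLR was at 3992 and 5131 CPM at 0 h and at 2909 and 2533 CPM at 6 h, and fell by 0.75 (SE 0.112, adjusted p = 4.66e-05). TRPS1 was at 767 and 792 CPM at 0 h and at 645 and 598 CPM at 6 h, a fall of 0.33 (SE 0.0739, adjusted p = 0.00204). The 2 times did not overlap for any of these 3 genes. GRHL2, with a cluster of 4 peaks and the highest score, went the other way, from 130 and 106 CPM to 353 and 376 CPM (log2 1.62, SE 0.0817, adjusted p = 7.40e-11).

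Most genes nearest to a distal gained peak had too few counts to be tested, as did most annotated genes (18806 of 57820 tested). The 3590 peaks had 2664 nearest genes, 566 of them nearest to 2 or more peaks; 889 (33.4%) had enough counts to be tested and 985 were at 0 in every siRNA library. The counts that follow describe the 889 only. They were more highly expressed than genes tested in general (median log2 CPM 4.70 against 3.41) and longer (median span 56.1 against 23.4 kb), and whether level or span has a part in the shares below was not tested, except where spans are compared.

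In si-control, nearest genes changed in both directions alike. Of the 889, 223 (25.1%) rose and 223 (25.1%) fell at adjusted p below 0.05 in edgeR, against backgrounds of 19.5% and 18.1% among all 18806 genes tested. Rises of at least 2-fold were 88 (9.90%) and falls 60 (6.75%), against 5.39% and 4.17%. The median change was -0.02 on the log2 scale, as it was over all genes tested (-0.02). Nearest genes of gained peaks close to a 5 prime end were called at 29.6% and 26.7% of 1286 tested. Distal peaks of both lists had 12 higher and 36 lower among 99 tested nearest genes, and those of the 0 min list alone 42 and 82 of 267; the difference between these sets was not tested. Of the 889, the 266 with any 30 min peak within 5 kb of their own 5 prime end were called in 30.8% and 28.6%.

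The direction shifted with distance and with peak score. When each peak was given the nearest tested gene (2011 genes), genes 5 to 10 kb away were higher in 30.6% and lower in 22.6%, and genes more than 100 kb away were higher in 17.5% and lower in 33.2%. Rises of at least 2-fold made up 15.1%, 11.5%, 6.38%, 8.09% and 8.06% of the bins from nearest to farthest, lowest at 25 to 50 kb. Genes of the peaks scored 50.01 to 56.16 were higher in 18.5% and lower in 31.6%, and those of peaks scored 87.5 to 572.16 higher in 28.7% and lower in 23.3%. A gene with several peaks can stand in several bins. Span moved with direction as well: over all genes tested, 30.8% of those spanning 100 kb or more fell, against 12% of those under 20 kb, and its part in the trend with distance was not tested. Genes of clusters of 3 or more peaks were higher in 12 and lower in 23 of 66.

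**Figure D3:**
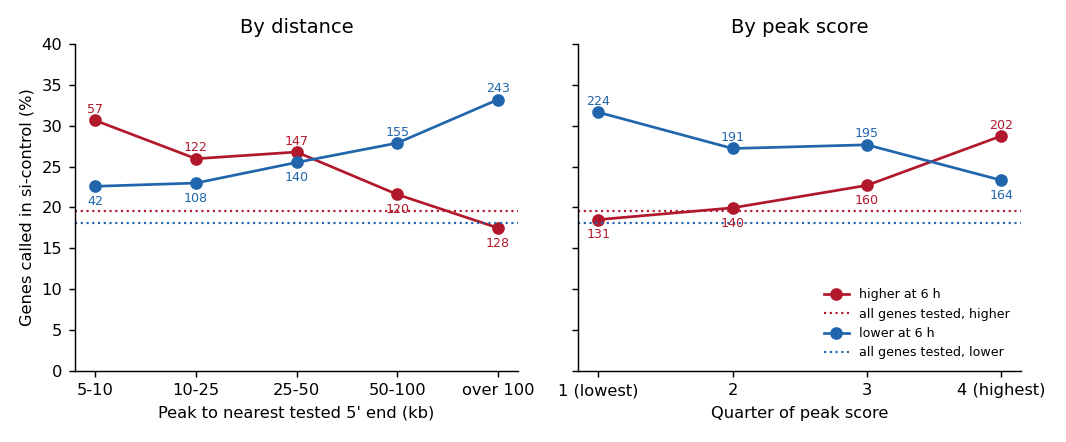
Share of nearest tested genes called higher (red) or lower (blue) at 6 h in si-control, by distance of the peak (left, kb) and by class of the peak score (right); numbers are genes called, and dotted lines give the share over all genes tested (19.5% and 18.1%). Higher calls fall from 30.6% to 17.5% with distance and rise from 18.5% to 28.7% with score.

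The strongest rises were of genes with 1 to 3 peaks. OTULINL (ENSG00000145569.5, chr5:14581884-14615116), a relative of the deubiquitinase OTULIN, was at 1.46 and 2.00 CPM at 0 h and at 33.0 and 39.3 CPM at 6 h in si-control (log2 4.39, SE 0.15, adjusted p = 4.2e-13), with 1 intronic peak 7.36 kb from its 5 prime end. ACOT6 (ENSG00000205669.2, chr14:74077649-74086592), an acyl-CoA thioesterase, went from 3.84 and 3.06 CPM to 49.4 and 42.9 CPM (log2 3.74, SE 0.12, adjusted p = 2.12e-13), with 1 peak 7.98 kb upstream. NET1 (ENSG00000173848.14, chr10:5454514-5500426), an exchange factor of RhoA, went from 48.0 and 48.3 CPM to 376 and 423 CPM (log2 3.05, SE 0.08, adjusted p = 4.2e-14), with a cluster of 3 peaks in its introns of score 53.85 to 188.91. In all 3 genes both 6 h libraries lay far above both 0 h libraries.

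The other rises named by the rule were of 2.29 to 3.07 on the log2 scale. SLC25A18, a mitochondrial glutamate carrier, rose by 3.07 and CMTM7, a membrane protein gene with 2 intronic peaks, by 2.92. PACSIN1, an endocytic adaptor, rose by 2.60 and RANBP3L by 2.42. KLF4, a zinc finger transcription factor, rose by 2.34 with a peak 14.2 kb upstream. EGFR, the epidermal growth factor receptor, rose by 2.31 and had an intronic peak 8.31 kb from the 5 prime end, and another 51.5 kb upstream. NEDD9, a focal adhesion scaffold, rose by 2.29. Their adjusted p was at most 2.82e-11, and in each the 2 libraries at 6 h lay above the 2 at 0 h.

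The strongest falls included 3 genes of chromosome 3. SOX2 (ENSG00000181449.2, chr3:181429714-181432221), a pluripotency transcription factor that lies inside SOX2-OT, was nearest to 4 peaks, 3 of them in a cluster 27.4 to 32.2 kb downstream. These 4 peaks lay 7696 to 12645 bp from a 0 min peak. SOX2 was at 9.46 and 12.8 CPM at 0 h and at 1.42 and 1.14 CPM at 6 h (log2 -3.12, SE 0.18, adjusted p = 4.56e-10). LMCD1 (ENSG00000071282.7, chr3:8543393-8609805), a LIM-domain protein gene with 2 peaks upstream in LMCD1-AS1, went from 263 and 262 CPM to 42.5 and 39.0 CPM (log2 -2.69, SE 0.12, adjusted p = 1.69e-11). CLDN1 (ENSG00000163347.5, chr3:190023490-190040264), the tight junction claudin-1, went from 277 and 336 CPM to 65.3 and 66.5 CPM (log2 -2.22, SE 0.084, adjusted p = 1.8e-12). PGR (ENSG00000082175.10, chr11:100900355-101001255, minus strand), the progesterone receptor itself, had 2 intronic peaks 34.3 and 65.8 kb from its 5 prime end and fell from 473 and 571 CPM to 84.4 and 110 CPM (log2 -2.42, SE 0.14, adjusted p = 5.89e-10). In all 4 genes both 0 h libraries lay above both 6 h libraries.

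The remaining falls of the rule were smaller. STMND1, with 3 peaks, fell by 2.02, and RERG, a Ras-like growth inhibitor known as oestrogen-regulated, by 2.00. FIGN, a microtubule-severing ATPase whose nearest peak was 141 kb away, fell by 1.97. TAOK3, a kinase gene with 2 intronic peaks, fell by 1.93 and ZBED5 by 1.58.

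**Figure D4:**
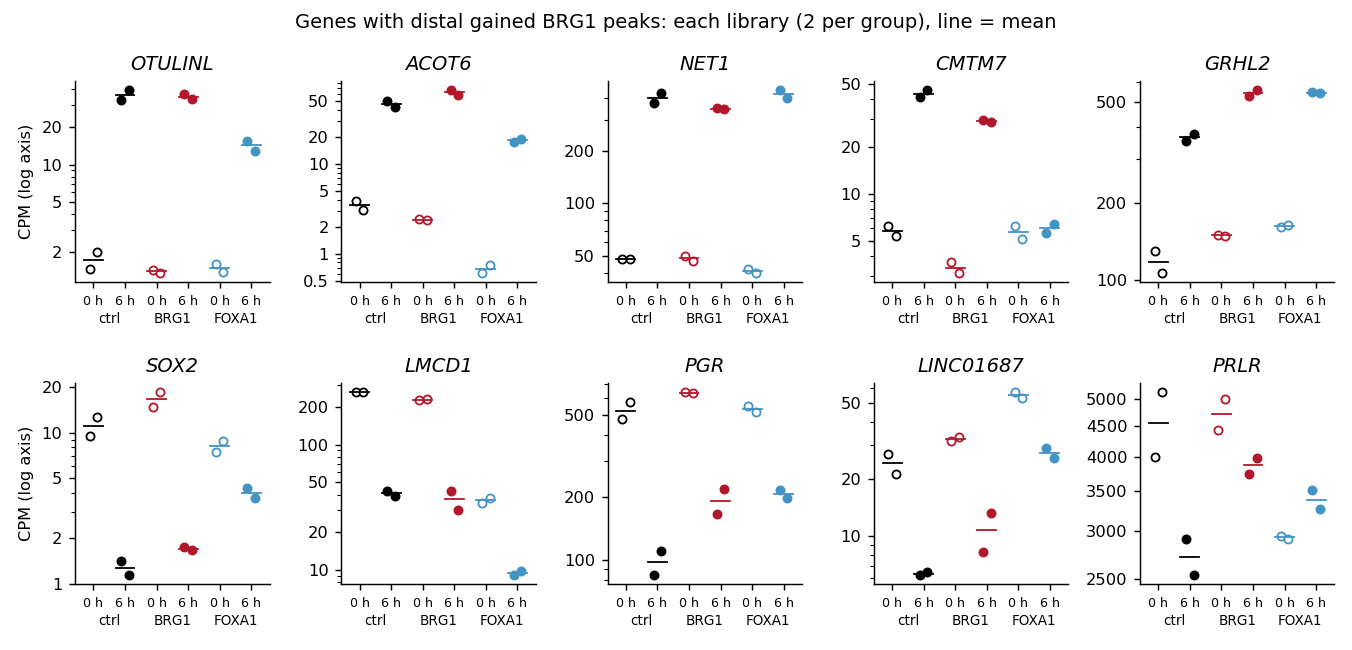
CPM (log axis) of 10 genes with distal gained peaks in each library of si-control, si-BRG1 and si-FOXA1 at 0 h (open) and 6 h (filled), 2 libraries per group with the mean as a line. OTULINL, ACOT6, NET1, CMTM7 and GRHL2 are higher and SOX2, LMCD1, PGR, LINC01687 and PRLR lower at 6 h in si-control; CMTM7 stays between 5.11 and 6.40 CPM in si-FOXA1.

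A list of genes that progestins and glucocorticoids are known to induce was read against the peaks. Of 27 listed, 11 (40.7%) had at least 1 peak within 100 kb of the 5 prime end, against 17.7% of all genes tested. Of the 10 of these 11 that were tested, 9 rose in si-control (median log2 1.79), and of the 16 without such a peak 13 rose (median 3.06). ERRFI1, a feedback inhibitor of EGFR, had 3 such peaks and rose by 2.02, PDK4, a pyruvate dehydrogenase kinase, had 1 and rose by 2.59, and NFKBIA, the inhibitor of NF-kB, had 1 and rose by 1.63. FKBP5 and SGK1, the textbook targets, rose by 3.82 and 5.96 with no distal gained peak within 100 kb, although FKBP5 had a 30 min peak within 5 kb of its 5 prime end. A distal gained peak was thus present at some of these genes and absent at others that rose more.

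Luminal transcription factors and receptors had such peaks in 9 of 17 (52.9%) and moved mostly down. Of the 17, 14 fell and 2 rose in si-control (median log2 -0.68); over all genes tested 18.1% fell and 19.5% rose. Of the 9 with a peak within 100 kb 7 fell and 2 rose, and of the 8 without one 7 fell. ESR1, the oestrogen receptor, had 2 intronic peaks 11.2 and 26.4 kb from its 5 prime end and went from 211 and 221 CPM to 92.1 and 91.0 CPM (log2 -1.24, SE 0.061, adjusted p = 6.04e-11). FOXA1, a pioneer factor, had 2 peaks within MIPOL1, 70.4 and 87.6 kb from it, and fell by 1.12 (SE 0.077, adjusted p = 3.54e-09). These 2 peaks lay only 862 and 127 bp from a 0 min peak. SWI/SNF subunits had peaks in 5 of 28 (17.9%), close to the share over genes tested. Of these 5, 3 fell (ARID1B by 0.50, SMARCE1 by 0.37, ARID2 by 0.21); the call for ARID2 was lost without si-control 0 h replicate 1 (adjusted p = 0.138) and without si-control 6 h replicate 2 (0.191).

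The libraries without siRNA moved the same way on the whole, with 1 library per time and so no test. On log2 of RPKM plus 1, nearest genes had a median change of 0.05 against 0.01 over all genes tested. Of the nearest genes called higher in si-control, 88.8% were above 0 there, and of those called lower 65.9% were below 0. ACOT6 went from 0.471 to 17.2 RPKM, NET1 from 20.1 to 128 RPKM, LMCD1 from 58.8 to 6.71 RPKM and SOX2 from 1.21 to 0.0478 RPKM. Some named genes that fell in si-control went the other way: PRLR from 198 to 282 RPKM, CABLES1 from 3.54 to 6.77 RPKM, SMARCE1 from 40.5 to 43.8 RPKM and ARID2 from 7.59 to 8.10 RPKM. ESR1 and CDYL2, among 52 tested nearest genes, were listed at 0 in both files, as SMARCA4 was, so a 0 there need not mean that a gene was silent.

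With BRG1 depleted, nearest genes that rose outnumbered those that fell. In si-BRG1, 269 (30.3%) of the 889 rose and 154 (17.3%) fell, against backgrounds of 18.6% and 17.1%. Of the 223 genes that rose in si-control, 196 (87.9%) also rose in si-BRG1, with a median log2 change of 0.87 against 0.83; over all genes tested the share was 67.2%. Of the 223 that fell, 134 (60.1%) also fell in si-BRG1, with a median of -0.41 against -0.62; over all genes the share was 57.3%, and the medians were -0.41 against -0.57 for falls and 0.47 against 0.57 for rises. These genes were picked by their si-control change, so the medians are a description only.

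The difference of the 2 responses was tested gene by gene. It was positive (a larger rise or a smaller fall in si-BRG1) in 45 nearest genes (5.06%) and negative in 11 (1.24%), against backgrounds of 1.49% and 3.72%. The median difference was 0.15 on the log2 scale for nearest genes and 0.04 over all. Distal peaks of the 0 min list alone had 9 positive (3.37%) and 2 negative (0.749%) among 267 tested nearest genes, median 0.15. Those of both lists had 1 and 2 of 99, median 0.17. Gained peaks close to a 5 prime end had 47 (3.65%) and 43 (3.34%) of 1286, median 0.09. The difference between these sets was not tested. The counts for distal gained peaks depend on single libraries. Without replicate 1 or 2 in turn, 11 and 18 were positive for si-BRG1 at 0 h, 113 and 44 for si-BRG1 at 6 h, 67 and 27 for si-control at 0 h, and 29 and 13 for si-control at 6 h. The shares over all genes moved with them, from 0.24% without si-BRG1 0 h replicate 1 to 5.84% without si-BRG1 6 h replicate 1 for positive differences. Negative calls also moved with the library left out, both at nearest genes and over all genes tested. In a fit of only these 4 groups edgeR called 3 positive (0.358%) and 0 negative (30 negative at unadjusted p below 0.05). Over all genes that fit called 0.122% and 0.268%. DESeq2 called 68 (7.65%) and 21 (2.36%), against 2.82% and 5.41% over all genes. The median difference stayed between 0.10 and 0.19 when 1 library was left out, and between 0.01 and 0.07 over all genes.

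The shift also moved with gene span. Over all genes tested, positive differences made up 0.665% of genes under 20 kb, 1.74% of genes of 20 to 100 kb and 3.28% of longer genes, and negative ones 5.23%, 3.15% and 0.747%. Among nearest genes the positive shares were 1.59%, 4.46% and 8.61% in the same order, with 4, 15 and 26 genes. Whether nearest genes differ from other genes of like span was not tested, and the shortest class rests on 4 genes. Negative calls were 5, 6 and 0; of the 302 longest genes 4 were negative at unadjusted p below 0.05 in edgeR, and DESeq2 called 1.

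**Figure D5:**
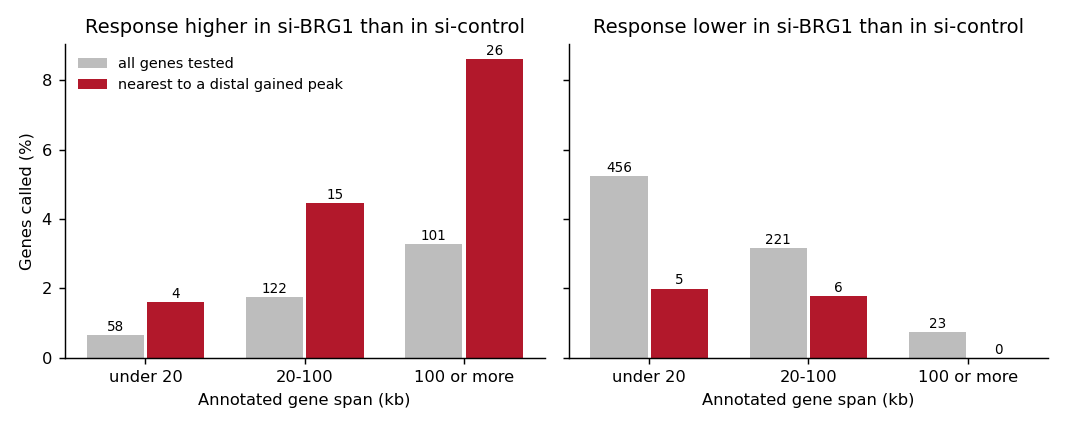
Share of genes whose hormone response was called higher (left) or lower (right) in si-BRG1 than in si-control, by annotated span (kb), for all genes tested (grey) and genes nearest to a distal gained peak (red), with the number of genes above each bar. In the longest class 8.61% of nearest genes were called higher, against 3.28% of all genes.

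CABLES1 and CYP1B1 had the lowest adjusted p for this difference. CABLES1 (ENSG00000134508.8, chr18:20714528-20840431), a cyclin-dependent kinase adaptor with a peak 29.2 kb upstream, was at 88.4 and 87.6 CPM before and at 31.3 and 32.1 CPM after hormone in si-control, and at 87.5 and 88.9 CPM before and at 59.9 and 54.3 CPM after in si-BRG1. The 0 h libraries overlapped and the si-BRG1 libraries at 6 h lay above those of si-control (difference 0.84, SE 0.096, adjusted p = 3.91e-04). CYP1B1 (ENSG00000138061.7, chr2:38294116-38337044, minus strand), a steroid hydroxylase with a pair of intronic peaks 10.9 and 13.4 kb from its 5 prime end, went from 70.7 and 86.4 CPM to 108 and 120 CPM in si-control and from 143 and 133 CPM to 410 and 503 CPM in si-BRG1. It was higher before hormone and rose more (difference 1.19, SE 0.14, adjusted p = 6.94e-04). In si-CBX3, which was not tested, CABLES1 went from 61.5 and 59.6 CPM to 35.7 and 34.1 CPM. CYP1B1 went from 295 and 299 CPM to 700 and 701 CPM there. The libraries without siRNA did not follow si-control at these genes: CABLES1 was higher at 6 h there (log2 0.78 on the RPKM plus 1 scale, against -1.47 in si-control), and CYP1B1 went from 5.54 to 40.6 RPKM (log2 2.67, against 0.53 in si-control and 1.72 in si-BRG1).

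Of the other genes named for this difference, 3 were positive and 1 negative. ACOT6 rose by 4.70 in si-BRG1 against 3.74 (difference 0.96, adjusted p = 0.00522). CDYL2, a chromodomain protein gene with a peak of score 311.21 at 33.3 kb, rose by 0.54 in si-BRG1 and was at -0.03 in si-control (difference 0.57, adjusted p = 0.00479). SLC31A2, a copper transporter gene, rose by 1.80 against 1.16 (difference 0.63, adjusted p = 0.00538), and its change without siRNA was 2.22 on the RPKM plus 1 scale. C1orf116, an androgen-regulated gene, rose by 1.21 in si-control and by 0.33 in si-BRG1 (difference -0.88, adjusted p = 0.00538); the si-BRG1 rise lost its call in 6 alternatives, among them each fit without 1 si-BRG1 library (adjusted p = 0.0796 to 0.165). In the fit of only these groups the 4 lost their calls (adjusted p = 0.0531 to 0.0637). PGR fell by 1.73 in si-BRG1 against 2.42 (difference 0.70, adjusted p = 0.0466), a call lost in 7 alternatives (adjusted p = 0.0586 to 0.163), among them the replicate block. PRLR differed by 0.46 and was not called (adjusted p = 0.101).

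Before hormone, si-BRG1 and si-control differed at nearest genes in both directions. Of the 889, 133 (15.0%) were higher and 166 (18.7%) lower than in si-control, against backgrounds of 15.1% and 13.4%. Which direction held more called genes rested on single libraries. The median difference was -0.01 on the log2 scale for nearest genes and 0.03 over all genes tested. With 1 library of these groups left out, it was -0.04 to -0.01 for nearest genes and 0.01 to 0.02 over all. Among 1246 host genes tested, 248 (19.9%) were higher and 213 (17.1%) lower, against the same backgrounds of 15.1% and 13.4%. TRPS1 was higher, at 1214 and 1252 CPM against 767 and 792 CPM (log2 0.66, SE 0.074, adjusted p = 7.56e-06), and STMND1 by 0.84. At 0 h TRPS1 was also above si-control in si-CBX3 (1902 and 1764 CPM) and in si-FOXA1 (1959 and 1930 CPM). Mean CPM of STMND1 was 13.1 in si-control, 23.4 in si-BRG1, 19.3 in si-CBX3 and 7.03 in si-FOXA1. CMTM7 was lower by 0.78 and NEDD9 by 0.65 on the log2 scale (adjusted p = 2.10e-04 and 3.97e-04). Mean CPM of CMTM7 at 0 h was 5.77 in si-control, 3.37 in si-BRG1, 2.17 in si-CBX3 and 5.66 in si-FOXA1. For NEDD9 it was 4.17, 2.64, 6.75 and 99.4 in the same order. Whether these changes are particular to si-BRG1 was not tested.

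FOXA1 is known to open distal sites for steroid receptors in luminal cells. With FOXA1 depleted, the difference of the hormone response from si-control was positive in 188 (21.1%) and negative in 118 (13.3%), against backgrounds of 13% and 15.7%. Both differences share the si-control libraries, and the 2 counts were not tested against each other. Over all genes tested, the si-FOXA1 difference was positive in 586 and negative in 1559 of 8718 genes under 20 kb. Of 3077 spanning 100 kb or more, 667 were positive and 320 negative. Nearest genes of these spans had 30 and 34 of 251, and 85 and 34 of 302. Distal peaks of the 0 min list alone had 63 and 17 of 267, and those of both lists 22 and 9 of 99. Gained peaks close to a 5 prime end had 291 and 232 of 1286. The part of span and the difference between sets were not tested. Per the file headers, counting ran with 1 thread for the si-FOXA1 files and 8 for the si-control files, so siRNA and counting command cannot be told apart across these sets. CMTM7 stayed at 6.21 and 5.11 CPM at 0 h and 5.61 and 6.40 CPM at 6 h in si-FOXA1 (difference -2.83, SE 0.16, adjusted p = 3.26e-09), with overlapping times where si-control had a rise. NEDD9 was at 99.2 and 99.5 CPM at 0 h and at 49.6 and 50.4 CPM at 6 h in si-FOXA1, a fall from a higher start, where si-control went from 3.91 and 4.43 CPM to 19.9 and 20.9 CPM (difference -3.28, SE 0.13, adjusted p = 4.42e-11). CLDN1 went from 46.5 and 47.5 CPM to 85.9 and 79.6 CPM in si-FOXA1, the opposite direction to si-control (difference 3.03, SE 0.12, adjusted p = 4.42e-11). ANKRD22, with a peak 7.17 kb upstream, was at 8.88 and 9.0 CPM before and 12.1 and 11.7 CPM after hormone in si-FOXA1, against 77.8 and 82.4 CPM before and 379 and 374 CPM after in si-control (difference -1.82, SE 0.11, adjusted p = 6.83e-09).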

How the data were processed

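The authors deposited raw fragment counts per gene for the 16 siRNA libraries; per the file headers, featureCounts 1.4.6-p2 counted reverse-stranded fragments (strand option 2) in GENCODE 19 genes (hg19). The BRG1 lists hold peaks with a score deposited by the authors, with no stated unit, caller setting or input. The files without siRNA hold RPKM and an estimated count the authors deposited; only RPKM was used. Per the submitters' processing notes, Trimmomatic, STAR, Bowtie 1.0.0 and HOMER were used. The labels of the first si-CBX3 0 h library give no protocol.

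Of 57820 genes, filterByExpr kept 18806 over all 16 libraries. Counts were scaled by TMM and fitted with edgeR 4.0.16 (R 4.3.3, quasi-likelihood, 8 residual degrees of freedom); p-values were adjusted by Benjamini-Hochberg over all genes tested, and adjusted p below 0.05 was called. The script was tested on simulated data. DESeq2 1.42.0 was an alternative. RPKM were compared as log2(RPKM + 1), which understates changes of low genes. Distances run from the peak centre to the 5 prime end, except the 5 kb rule (peak edge); clusters chain gaps of up to 12500 bp. Symbols were matched for 39538 genes (68.4%). Peaks and figures used Python 3.11.15, numpy 2.4.6, pandas 2.3.3 and matplotlib 3.10.9.

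Named genes were, among tested nearest genes with mean log2 CPM of at least 3, the 10 largest non-overlapping rises and falls, up to 6 and 4 with the lowest p for the si-BRG1 and si-FOXA1 differences, the nearest genes of the 8 largest clusters and the 6 highest scores, the 8 tested genes with most peaks within 100 kb, up to 4 per list, and FKBP5, SGK1, SMARCA4 and PGR. Members, lists and rules were chosen with earlier results of these data known. Alternatives changed scaling, tool, filter, block, libraries, peak score, distance and chaining. Motifs in peak regions were not analysed here.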

Additional observations from a re-analysis of the deposited data

Results flagged for a closer look

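For 6 nearest genes, the hormone response in si-BRG1 differed from that in si-control by a test of the difference itself (edgeR, log2 scale). The difference was 1.19 for CYP1B1, 0.96 for ACOT6, 0.84 for CABLES1, 0.63 for SLC31A2 and 0.57 for CDYL2, all higher in si-BRG1, and -0.88 for C1orf116. For 4 nearest genes the response differed in si-FOXA1: by 3.03 for CLDN1, -3.28 for NEDD9, -2.83 for CMTM7 and -1.82 for ANKRD22. These genes were named for the lowest p of the same differences. In edgeR the si-FOXA1 difference was also called for ACOT6 (1.02), CDYL2 (1.22) and C1orf116 (-1.29), in the same direction as for si-BRG1. For CABLES1, CYP1B1 and SLC31A2 it was not called (adjusted p = 0.312, 0.268 and 0.0622). Whether the si-BRG1 differences are particular to si-BRG1 was not tested.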

How the results depend on the processing

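Counts are given as higher and lower. With the nearest gene taken among genes tested (2011 genes), they were 475 and 524 in si-control, 578 and 367 in si-BRG1, 89 and 26 for the si-BRG1 difference, 314 and 363 for si-BRG1 at 0 h, and 427 and 263 for the si-FOXA1 difference. With peaks at or above the median member score (502 genes), they were 146 and 111 in si-control and 175 and 75 in si-BRG1. They were 35 and 7 for the si-BRG1 difference, 83 and 98 at 0 h, and 120 and 70 for si-FOXA1. With host genes, an alternative chosen after seeing the data (1246 genes), they were 353 and 379 in si-control and 424 and 244 in si-BRG1. They were 63 and 15 for the si-BRG1 difference, 248 and 213 at 0 h, and 331 and 187 for si-FOXA1. These 3 alternatives test other numbers of genes from the main fit, so its backgrounds apply. For the si-BRG1 difference, DESeq2 gave 68 and 21 (2.82% and 5.41% over all genes). Without a low-count filter 71 and 16 were called (1.51% and 2.52% over all genes). Only the groups of this difference gave 3 and 0 in edgeR (30 lower at unadjusted p below 0.05), against 0.122% and 0.268%. The cause was not tested. Leaving out 1 library gave 11 to 113 higher and 2 to 25 lower for this difference, and 89 to 170 lower at 0 h. Fits with 1 library left in a group assume that it varies like the others.

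The replicate block gave 36 and 7 for the si-BRG1 difference and moved no other count by over 1.5 times; deviations of same-numbered libraries correlated at -0.01 to 0.09, so the numbers were not taken to pair samples. Without peaks on chromosome 3, chosen after seeing the data, the difference gave 43 and 11. Of the gained peaks, 1587 scored at or above the median of the 30 min list. Chaining at 5 kb gave 225 clusters with 489 peaks, and at 50 kb 575 with 1509, the largest of 14. Without siRNA, the median change of nearest genes was 0.11 with a pseudocount of 0.1 and 0.23 over genes of at least 1 RPKM. For named genes, 2426 values either kept direction and call or were uncalled in both fits, whatever their sign. A call was lost by 109 values and gained by 42. The uncalled si-BRG1 response of ARID1A turned to -0.49 without si-BRG1 6 h replicate 2 and was 0.56 without replicate 1. Motif windows in peaks were not run. Scores say nothing of depth in the ChIP libraries, which is unknown.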

Other observations

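Genes with many distal gained peaks around their 5 prime end were few. Of the genes tested, 15478 had none within 100 kb, and in si-control 18.6% of them rose and 17.6% fell. Of the 2431 genes with 1 peak 24.3% rose and 19.1% fell, of the 606 with 2 peaks 22.8% and 24.9%, and of the 257 with 3 or 4 peaks 59 rose and 58 fell. Of the 34 genes with 5 or more, 5 rose and 11 fell. The difference between these classes was not tested.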
